A study of Mus musculus with 16 samples.

Results

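The proteasome subunits described here are the interferon-induced catalytic subunits Psmb8, Psmb9 and Psmb10, the interferon-induced activator subunits Psme1 and Psme2, and the constitutive catalytic subunits Psmb5, Psmb6 and Psmb7. They were taken as every probe set whose only gene symbol in the array annotation is 1 of these 8 genes. This gave 8 probe sets for 7 of the 8 genes, out of 18193 genes with such a probe set. Psme2 has no value here, because its probe set carries a second symbol. Psmb8 has 2 probe sets, and the brighter is used unless stated otherwise.

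The data cover 16 B16-OVA tumors, 4 in each of 4 groups, with 1 array per tumor and each tumor from its own mouse. B16-OVA cells are murine melanoma cells carrying ovalbumin as a model antigen. The cells were injected under the skin of C57BL/6-Ly5.1 mice that were 6 to 12 weeks old, and tumors were taken on day 18. MEKi+CD40 mice received GDC-0623, an inhibitor of the kinase MEK, at 30 mg/kg per day for about 2 weeks together with an agonist antibody against CD40, the receptor through which helper T cells activate antigen-presenting cells. CD40 mice received the antibody and the vehicle MCT. MEKi mice received GDC-0623 and a control IgG, and Control mice received vehicle and control IgG. Antibodies were given on treatment days 3, 5 and 7 and again 1 day before analysis.

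RNA came from pieces of whole tumor, so each value mixes melanoma cells with every other cell in the piece, and fewer cells of a type cannot be told apart from less RNA per cell. The 8 melanocyte genes that mark B16 cells averaged between 13.4 and 13.8 log2 units in every tumor. Values are normalized expression on the log2 scale, on which 1 unit is a doubling of signal. The background level, set from olfactory receptor probe sets, was 4.94. Levels of different probe sets are not compared. Skeletal muscle genes stood out in 3 tumors, with means of 11.8 in MEKi+CD40 tumor 1, 8.91 in MEKi+CD40 tumor 3 and 7.66 in CD40 tumor 3, against 4.70 to 5.60 in the other 13 tumors.

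The proteasome degrades ubiquitin-tagged proteins and makes most of the peptides that are shown on MHC class I. Its 20S core holds catalytic subunits, and cells exposed to interferon build new cores in which Psmb9 takes the place of Psmb6, Psmb10 that of Psmb7 and Psmb8 that of Psmb5. The resulting immunoproteasome cuts proteins with other preferences, favouring peptides with the hydrophobic or basic ends that class I molecules bind. Psme1 and Psme2 form a ring, PA28, that caps the core and opens it. Cells of the immune system carry immunoproteasomes without stimulation, while most other cells need interferon to make them.

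Promoters are shown for 3 interferon-induced and 2 constitutive subunits, so that the letters around the transcription start of both kinds of subunit can be set side by side. Each is the RefSeq window of 250 bases before to 50 bases after the transcription start in build GRCm38.p6, and 7 of the 8 genes had one. Capitals mark matches to 3 searched motifs on either strand. These were the interferon-stimulated response element core GAAANNGAA, the gamma-activated site TTCNNNGAA, which reads the same on both strands, and the antioxidant response element core TGACNNNGC. They occurred in 8.56%, 8.3% and 12.4% of all 32851 promoter windows of this length. The Psmb8 window is chr17:34197945-34198244 (plus strand), that of Psmb9 chr17:34187281-34187580 (minus strand), that of Psme1 chr14:55578244-55578543 (plus strand), that of Psmb5 chr14:54617946-54618245 (minus strand) and that of Psmb6 chr11:70525107-70525406 (plus strand).
Psmb8: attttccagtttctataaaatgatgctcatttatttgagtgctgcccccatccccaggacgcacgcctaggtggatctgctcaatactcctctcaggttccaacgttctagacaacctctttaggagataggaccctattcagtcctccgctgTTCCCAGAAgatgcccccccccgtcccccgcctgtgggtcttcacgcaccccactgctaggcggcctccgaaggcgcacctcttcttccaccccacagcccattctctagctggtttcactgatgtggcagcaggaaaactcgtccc
Psmb9: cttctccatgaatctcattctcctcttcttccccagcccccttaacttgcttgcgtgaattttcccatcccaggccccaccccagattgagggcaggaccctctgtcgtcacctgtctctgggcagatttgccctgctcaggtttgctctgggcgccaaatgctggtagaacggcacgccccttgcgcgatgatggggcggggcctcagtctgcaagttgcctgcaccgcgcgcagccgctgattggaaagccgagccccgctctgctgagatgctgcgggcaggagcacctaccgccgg
Psme1: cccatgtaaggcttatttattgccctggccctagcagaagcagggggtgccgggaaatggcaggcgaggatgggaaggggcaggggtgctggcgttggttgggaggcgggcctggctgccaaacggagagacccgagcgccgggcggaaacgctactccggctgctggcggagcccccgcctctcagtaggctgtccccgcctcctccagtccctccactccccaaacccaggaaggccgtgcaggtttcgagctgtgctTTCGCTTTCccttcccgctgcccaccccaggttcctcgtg
Psmb5: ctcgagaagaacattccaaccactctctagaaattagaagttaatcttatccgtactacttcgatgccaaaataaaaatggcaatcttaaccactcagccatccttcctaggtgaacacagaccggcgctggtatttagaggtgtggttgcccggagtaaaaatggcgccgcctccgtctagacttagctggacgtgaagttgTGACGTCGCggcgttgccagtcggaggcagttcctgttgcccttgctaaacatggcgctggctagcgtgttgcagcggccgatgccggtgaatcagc
Psmb6: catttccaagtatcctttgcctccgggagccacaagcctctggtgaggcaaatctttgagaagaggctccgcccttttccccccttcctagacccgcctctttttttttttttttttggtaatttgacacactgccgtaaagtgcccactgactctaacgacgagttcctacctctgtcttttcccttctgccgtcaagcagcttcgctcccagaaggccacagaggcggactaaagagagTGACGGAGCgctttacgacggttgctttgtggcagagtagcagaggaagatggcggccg
Psmb8 held 1 gamma-activated site, TTCCCAGAA, at bases 154 to 162 of its window. Psme1 held 1 interferon-stimulated response element core, read as TTCGCTTTC on the strand shown, at bases 261 to 269, after the transcription start. Psmb5 and Psmb6 each held 1 antioxidant response element core, TGACGTCGC at bases 204 to 212 and TGACGGAGC at bases 242 to 250. None of the marked matches overlapped another. The windows of Psmb9, Psmb10 and Psme2 held none of the 3, which says only that these letters are not there. Psmb8 and Psmb9 start 10865 bases apart on chromosome 17, inside the MHC. The Psmb9 window shares 275 bases with that of Tap1, a peptide transporter gene read from the opposite strand.

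Across the 4 groups, the interferon-induced subunits were at their highest in CD40 tumors and at their lowest in MEKi tumors, with MEKi+CD40 and Control tumors in between, whereas the constitutive subunits hardly moved. Psmb8 read 11.69, 11.54, 11.58 and 8.66 in MEKi+CD40 tumors, 12.05, 12.63, 12.50 and 12.03 in CD40 tumors, 9.20, 5.81, 6.87 and 8.07 in MEKi tumors and 10.32, 10.68, 11.98 and 11.84 in Control tumors. Every MEKi tumor lay below every Control tumor, every CD40 tumor lay above every Control tumor, and MEKi+CD40 tumor 4 fell among the MEKi tumors. Psmb8 averaged 10.87 ± 1.47 in MEKi+CD40, 12.30 ± 0.31 in CD40, 7.49 ± 1.47 in MEKi and 11.21 ± 0.83 in Control tumors (SD, n = 4 each).

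Psmb9 read 11.54, 11.40, 11.32 and 9.17 in MEKi+CD40 tumors, 11.67, 12.47, 12.25 and 11.70 in CD40 tumors, 9.18, 5.72, 6.22 and 8.52 in MEKi tumors and 10.17, 10.50, 11.91 and 11.61 in Control tumors. It followed Psmb8 tumor by tumor: with each gene set to its own mean, the root mean square distance between the 2 profiles was 0.272 log2 units over the 16 tumors, while Psmb8 itself varied with an SD of 2.12. MEKi+CD40 tumor 4 was again within the MEKi range.

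Psmb10 had 11.49, 10.96, 10.46 and 9.32 in MEKi+CD40 tumors, 11.15, 12.21, 11.98 and 10.87 in CD40 tumors, 9.74, 9.24, 8.89 and 9.63 in MEKi tumors and 10.21, 10.17, 11.66 and 11.16 in Control tumors. Psme1 had 12.02, 12.05, 12.01 and 11.03 in MEKi+CD40 tumors, 12.02, 12.71, 12.41 and 11.91 in CD40 tumors, 10.82, 10.42, 10.02 and 10.82 in MEKi tumors and 11.17, 11.27, 12.25 and 11.89 in Control tumors. Both covered a smaller range than Psmb8 (6.82), with 3.32 for Psmb10 and 2.69 for Psme1, and both were highest on average in CD40 tumors and lowest in MEKi tumors. In all 4 interferon-induced subunits, Control tumors 1 and 2 lay below Control tumors 3 and 4.

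**Figure D1:**
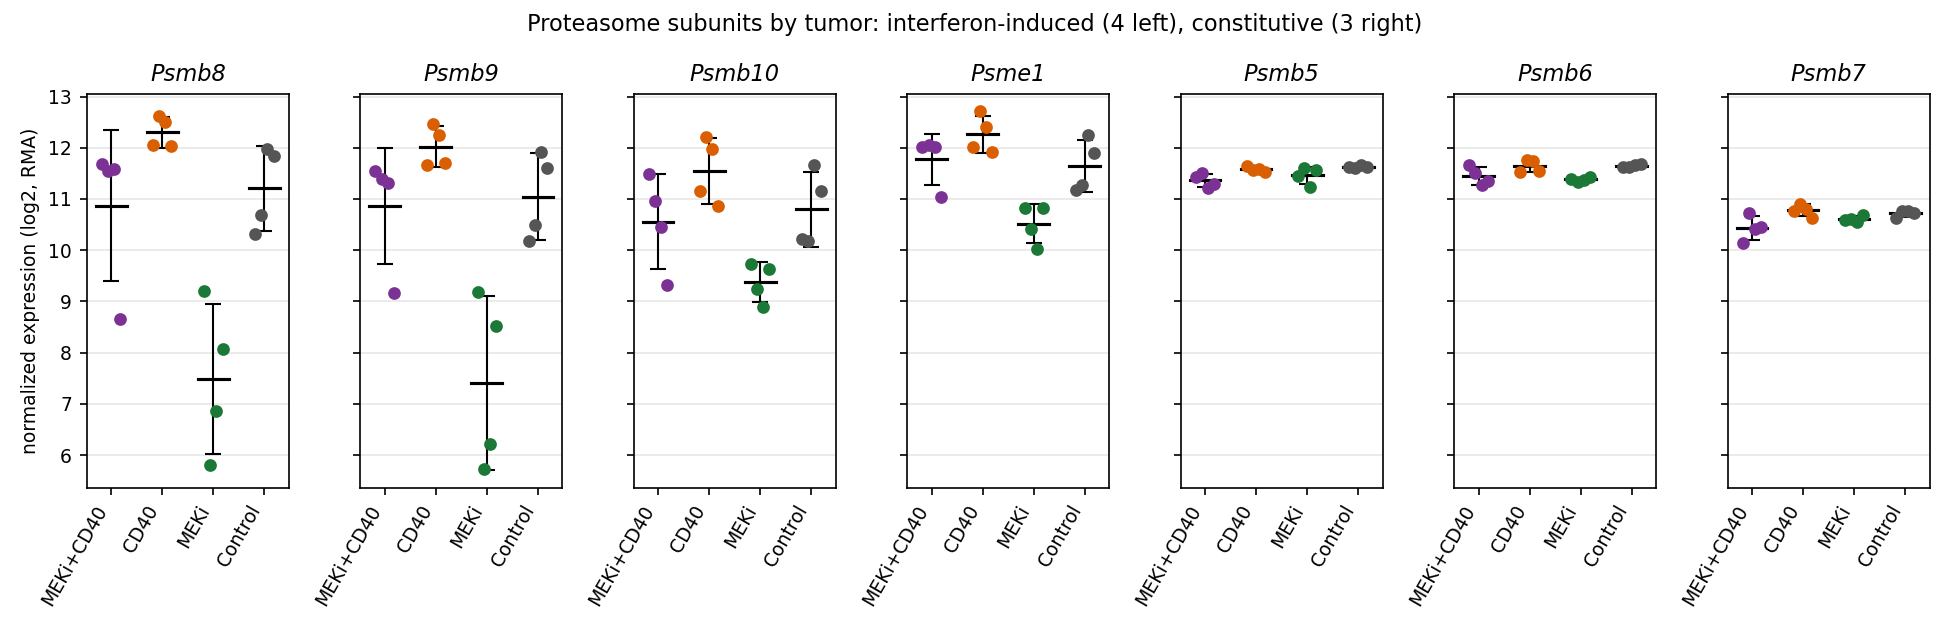
Normalized expression (log2, vertical axis) of the 7 measured subunits in each tumor, in columns for MEKi+CD40, CD40, MEKi and Control; points are tumors, thick bars group means and error bars the SD. The 4 interferon-induced subunits spread widely, with MEKi tumors of Psmb8 between 5.81 and 9.20, while the 3 constitutive subunits stay within 0.76 log2 units over all 16 tumors.

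The constitutive subunits varied little. Psmb5 read 11.43, 11.51, 11.22 and 11.30 in MEKi+CD40 tumors, 11.64, 11.57, 11.59 and 11.53 in CD40 tumors, 11.45, 11.60, 11.24 and 11.56 in MEKi tumors and 11.60 to 11.67 in Control tumors. Psmb6 lay between 11.28 and 11.67 in MEKi+CD40, 11.53 and 11.77 in CD40, 11.34 and 11.42 in MEKi and 11.62 and 11.69 in Control tumors, so that every MEKi tumor was below every Control tumor. Psmb7 lay between 10.15 and 10.73 in MEKi+CD40, 10.63 and 10.91 in CD40, 10.55 and 10.68 in MEKi and 10.62 and 10.77 in Control tumors. The spread between tumors of the same group, pooled over the groups, was 1.13 for Psmb8, 1.12 for Psmb9, 0.70 for Psmb10 and 0.45 for Psme1. It was 0.11 for Psmb5 and Psmb6 and 0.14 for Psmb7, against a median of 0.16 over all genes.

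CD40 tumors set against MEKi tumors gave the clearest difference. All 4 measured interferon-induced subunits were higher with the CD40 antibody alone than with the MEK inhibitor alone, and none of the constitutive subunits passed the test. With limma and Benjamini-Hochberg adjustment over all 45037 probe sets, Psmb8 was higher by 4.82 ± 0.62 (SE, adjusted p = 0.0138), a 28.1-fold difference on this scale, and Psmb9 by 4.61 ± 0.71 (adjusted p = 0.0266), a 24.5-fold difference. Psmb10 was higher by 2.18 ± 0.31 (adjusted p = 0.0213) and Psme1 by 1.74 ± 0.22 (adjusted p = 0.0140). Of all probe sets, 0.893% passed at an adjusted p below 0.05 and 0.77% passed and were higher. The 2 groups did not overlap in 5 of the 7 subunits, all higher with CD40, against 3.65% of all probe sets.

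The fifth was Psmb6, higher by 0.27 ± 0.08 (adjusted p = 0.189). Psmb5 differed by 0.12 ± 0.09 and Psmb7 by 0.17 ± 0.08. The dimmer Psmb8 probe set read 6.60 to 7.11 in CD40 tumors and 4.42 to 5.07 in MEKi tumors. It was below background in 3 of the 4 MEKi tumors, so the size of its difference is not given. The calls of the 4 interferon-induced subunits depended on the model and on single tumors. With a trended and robust prior Psme1 alone passed (adjusted p = 0.0266), and Psmb8 (adjusted p = 0.0580), Psmb9 (adjusted p = 0.0912) and Psmb10 (adjusted p = 0.0559) did not. With the replicate number as a block, Psmb9 (adjusted p = 0.0586) and Psmb10 (adjusted p = 0.0600) missed the threshold. Without CD40 tumor 2, Psme1 alone passed, and Psmb8 (adjusted p = 0.0641), Psmb9 (adjusted p = 0.104) and Psmb10 (adjusted p = 0.0659) did not. Without MEKi tumor 2, Psmb8 alone passed, and Psmb9 (adjusted p = 0.0610), Psmb10 (adjusted p = 0.0754) and Psme1 (adjusted p = 0.0549) did not. Psmb9 also missed the threshold without CD40 tumor 1 (adjusted p = 0.0561), CD40 tumor 4 (adjusted p = 0.0543) or MEKi tumor 3 (adjusted p = 0.0546). Without CD40 tumor 3, the one with muscle transcripts, all 4 passed, at adjusted p values between 0.0204 and 0.0433.

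**Figure D2:**
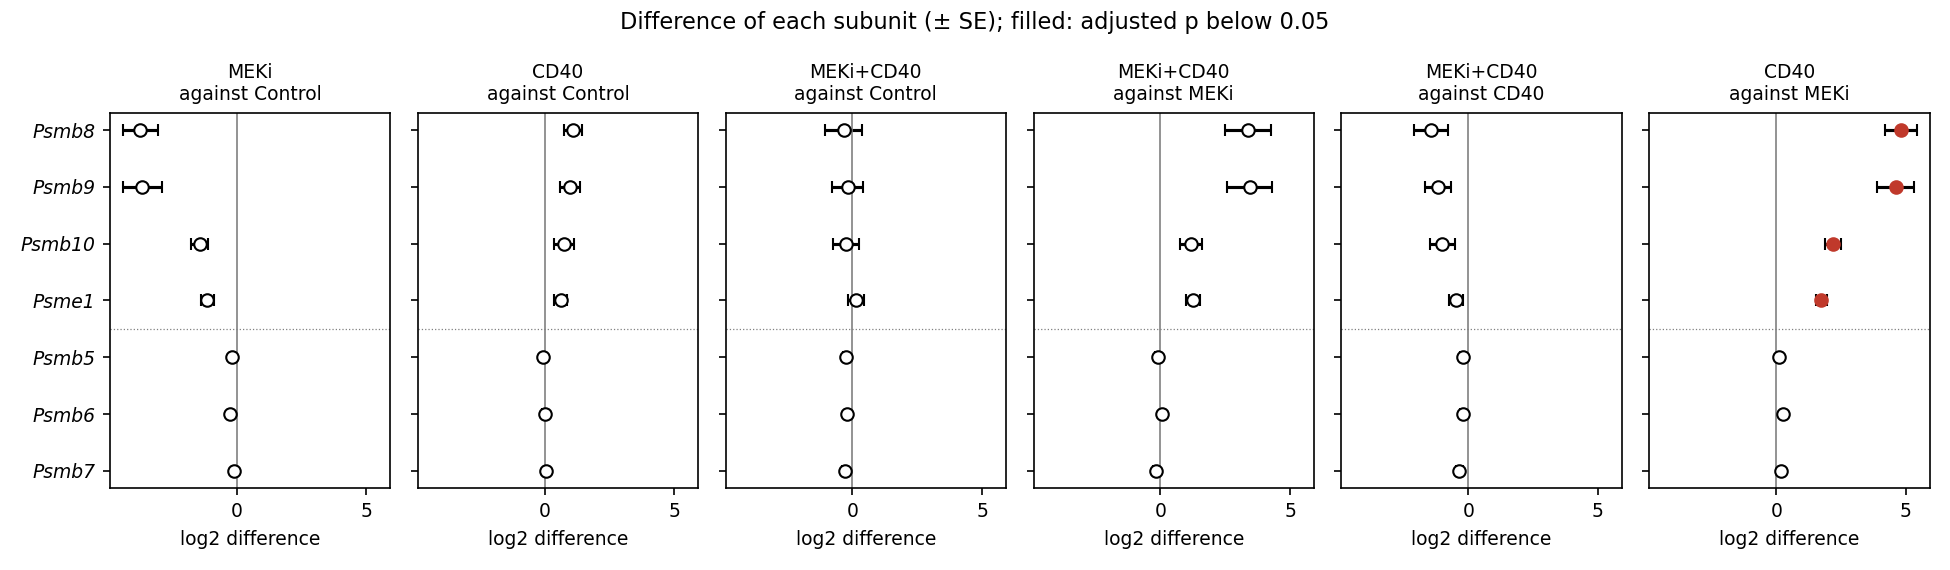
Log2 difference of each subunit (horizontal axis, ± SE, hidden by the marker where small) in the 6 comparisons between groups, with filled points for an adjusted p below 0.05; n = 4 tumors per group. Filled points appear only for Psmb8, Psmb9, Psmb10 and Psme1 in CD40 against MEKi.

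Each drug alone was then set against Control. With MEKi alone, Psmb8 was lower by 3.72 log2 units (difference −3.72 ± 0.68, a 13.2-fold lower signal) and Psmb9 by 3.64 (−3.64 ± 0.76, 12.4-fold), Psmb10 differed by −1.43 ± 0.34 and Psme1 by −1.13 ± 0.26. No subunit passed the test: the adjusted p was 0.570 for each of these 4 and for Psmb6 (−0.27 ± 0.06). None of the 45037 probe sets passed in this comparison (0%), although 3110 of them and 5 of the 7 subunits had an unadjusted limma p below 0.05. The groups did not overlap for 5 of 7 subunits, all lower with MEKi, against 1.68% of all probe sets. Psmb5 differed by −0.17 ± 0.09 and Psmb7 by −0.11 ± 0.07, with overlap.

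With CD40 alone, Psmb8 differed from Control by 1.10 ± 0.36, Psmb9 by 0.98 ± 0.38, Psmb10 by 0.75 ± 0.40 and Psme1 by 0.62 ± 0.26. The adjusted p ranged from 0.532 for Psmb8 to 0.638 for Psmb10, and again no probe set at all passed (0%), with 3857 probe sets and 3 subunits at an unadjusted limma p below 0.05. Only Psmb8 was higher in every CD40 tumor than in any Control tumor, against 1.49% of all probe sets. The constitutive subunits differed by −0.05 ± 0.06 for Psmb5, 0 ± 0.08 for Psmb6 and 0.06 ± 0.08 for Psmb7.

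Combination-treated tumors were compared with each of the other groups. Against Control, the interferon-induced subunits differed by −0.34 ± 0.71 for Psmb8, −0.19 ± 0.60 for Psmb9, −0.24 ± 0.50 for Psmb10 and 0.13 ± 0.31 for Psme1, all within the spread of the tumors. The sign of the first 3 turned without MEKi+CD40 tumor 4, to 0.40, 0.37 and 0.17, and that of Psmb9 and Psmb10 also without Control tumor 3, to 0.098 and 0.044. Without MEKi+CD40 tumors 1 and 3, those with muscle transcripts, the differences were −1.11 for Psmb8 (adjusted p = 0.545), −0.76 for Psmb9, −0.66 for Psmb10 and −0.11 for Psme1. Psme1 also turned to −0.026 without Control tumor 1. The dimmer Psmb8 probe set had the opposite sign to the brighter, at 0.315 ± 0.45. The constitutive subunits differed by −0.27 ± 0.08 for Psmb5 (adjusted p = 0.109), −0.20 ± 0.10 for Psmb6 and −0.28 ± 0.12 for Psmb7. None of the 7 passed, where 0.00888% of all probe sets did, and Psmb5 alone was lower in every MEKi+CD40 tumor, against 8.55% of all probe sets.

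Against MEKi alone, adding the CD40 antibody gave differences of 3.38 ± 0.88 for Psmb8 (adjusted p = 0.0782), 3.45 ± 0.87 for Psmb9 (adjusted p = 0.0719), 1.18 ± 0.43 for Psmb10 (adjusted p = 0.166) and 1.26 ± 0.27 for Psme1 (adjusted p = 0.0578). None passed, while 1.15% of all probe sets did and 0.526% passed and were higher. These 4 subunits were the ones with an unadjusted limma p below 0.05, against 20.3% of all probe sets. Only Psme1 was higher in every MEKi+CD40 tumor, against 5.22% of all probe sets, since MEKi+CD40 tumor 4 lay inside the MEKi range for the others. Without that tumor Psme1 was higher by 1.51 and passed (adjusted p = 0.0372). With the spread estimated from all 16 arrays, Psmb8, Psmb9 and Psme1 passed, at adjusted p values of 0.0106, 0.00955 and 0.0143. Psmb5 (−0.10 ± 0.11), Psmb6 (0.07 ± 0.10) and Psmb7 (−0.17 ± 0.12) stayed within the spread.

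Against CD40 alone, adding the MEK inhibitor gave differences of −1.44 ± 0.64 for Psmb8, −1.17 ± 0.51 for Psmb9, −0.995 ± 0.48 for Psmb10 and −0.49 ± 0.27 for Psme1. Without MEKi+CD40 tumor 4 these were −0.70, −0.60, −0.58 and −0.24, and without the 3 tumors with muscle transcripts they were −2.14, −1.66, −1.27 and −0.67. Psmb5 differed by −0.22 ± 0.08, Psmb6 by −0.20 ± 0.11 and Psmb7 by −0.34 ± 0.13. None of the 7 passed, the smallest adjusted p being 0.164, in a comparison where 4.74% of all probe sets passed. The constitutive Psmb5 and Psmb7 were the 2 with an unadjusted limma p below 0.05, against 21.3% of all probe sets. Psmb8, Psmb9 and Psmb5 were lower in every MEKi+CD40 tumor, against 6.75% of all probe sets. The dimmer Psmb8 probe set overlapped, at 4.97 to 6.97 in MEKi+CD40 and 6.60 to 7.11 in CD40 tumors. The difference between the 2 effects of the CD40 antibody, with the MEK inhibitor (MEKi+CD40 minus MEKi) less without it (CD40 minus Control), was 2.28 ± 1.02 for Psmb8 (adjusted p = 0.325) and 2.47 ± 1.01 for Psmb9 (adjusted p = 0.270). No probe set passed this test (0%), with 6424 probe sets and 2 subunits at an unadjusted limma p below 0.05, so a dependence of the CD40 difference on the MEK inhibitor was not shown for any subunit. The dimmer Psmb8 probe set gave 0.34 ± 0.51 here, a size limited by its signal near background in MEKi tumors.

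Each interferon-induced catalytic subunit was next set against the constitutive subunit whose place it takes, as 1 log2 difference per tumor. Relative to the Control mean, Psmb8 minus Psmb5 lay between −2.21 and 0.79 in MEKi+CD40 tumors, 0.84 and 1.49 in CD40 tumors, −5.36 and −1.82 in MEKi tumors and −0.88 and 0.74 in Control tumors. In CD40 against MEKi tumors the pair differences were 4.70 ± 0.76 (SE) for Psmb8 minus Psmb5, 4.35 ± 0.85 for Psmb9 minus Psmb6 and 2.01 ± 0.32 for Psmb10 minus Psmb7. In MEKi against Control tumors they were −3.55 ± 0.85, −3.37 ± 0.93 and −1.31 ± 0.40 for the same 3 pairs. For all 6 values the groups did not overlap, and the exact two-sided permutation p was 0.0286, the smallest that 4 against 4 tumors can give. Of 18 such tests, 3 pairs in 6 comparisons, 10 reached that value and none passed after adjustment over the 18 (adjusted p = 0.0514). The 10 share this adjusted p, which follows from the smallest possible p and the number of tests that reached it.

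**Figure D3:**
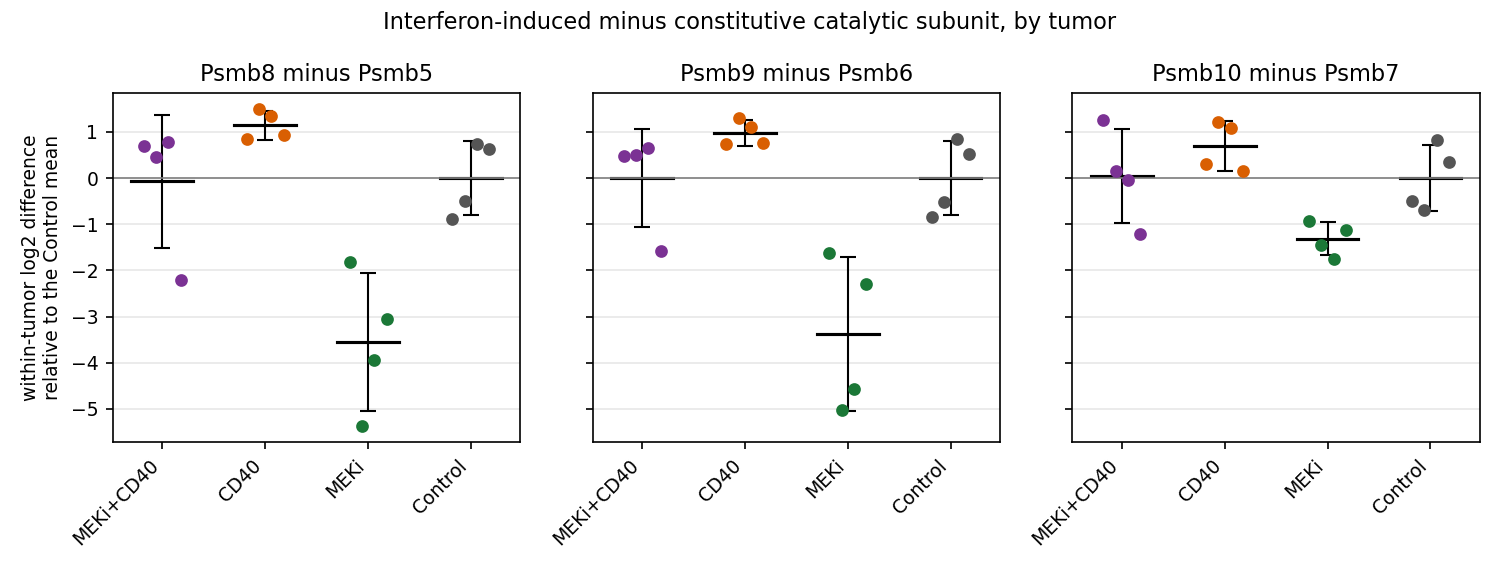
Within-tumor log2 difference between an interferon-induced catalytic subunit and its constitutive counterpart, relative to the Control mean (vertical axis), for MEKi+CD40, CD40, MEKi and Control tumors; points are tumors, thick bars means and error bars the SD. All MEKi tumors lie below all Control tumors in each of the 3 pairs, and MEKi+CD40 tumor 4 lies at −2.21 for Psmb8 minus Psmb5.

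In CD40 against MEKi tumors no gene of the rest of the proteasome passed. Among the 12 other genes of the 20S core, the median difference was 0.25, against −0.045 over all probe sets and 3.40 for the interferon-induced subunits. Of the 19S regulator, the cap that recognises ubiquitin and unfolds substrates, 17 of 18 genes were measured, with a median of 0.09. At an unadjusted limma p below 0.05 were 7 of the core genes and 3 of the 19S genes, against 13.9% of all probe sets. All 12 core genes and 14 of the 17 19S genes had a positive difference. Of these, 8 core genes and 3 19S genes were higher in every CD40 tumor than in any MEKi tumor, against 3.65% of all probe sets. Psme3, the nuclear relative of Psme1, was at 8.35 to 8.73 in MEKi+CD40, 8.97 to 9.13 in CD40, 8.70 to 9.03 in MEKi and 8.68 to 8.93 in Control tumors. Psmb11, the thymus-specific catalytic subunit, was below background in all 16 tumors.

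In MEKi+CD40 against CD40 tumors, some genes of the rest of the proteasome passed the test and were lower. Of the 12 core genes 4 fell, of the 17 of the 19S regulator 5 fell, and of the 9 measured activators and assembly factors 1 fell, against 2.46% of all probe sets that passed and were lower. The core genes Psma4 (−0.61 ± 0.12, adjusted p = 0.0357), Psma7 (−0.54 ± 0.10, adjusted p = 0.0336), Psma3 (−0.49 ± 0.10, adjusted p = 0.0415) and Psma1 (−0.45 ± 0.10, adjusted p = 0.0499) encode rings that frame the catalytic chamber. In the 19S regulator, the ATPase subunit Psmc6 differed by −0.58 ± 0.09 (adjusted p = 0.0260) and the large scaffold subunit Psmd1 by −0.41 ± 0.08 (adjusted p = 0.0337). The medians were −0.38 for the core and −0.41 for the 19S regulator, against 0.02 over all probe sets, −1.08 for the 4 interferon-induced subunits, none of which passed, and −0.22 for Psmb5, Psmb6 and Psmb7. Psme3 differed by −0.48 ± 0.10 (adjusted p = 0.0424), and Pomp, the chaperone that assembles the core, by −0.25 ± 0.10 (adjusted p = 0.216). These counts rested on single tumors: without any 1 of CD40 tumors 1, 2 and 4 or MEKi+CD40 tumors 3 and 4, no gene of the 3 lists passed, and without CD40 tumor 3 only 1 did, while without MEKi+CD40 tumor 1 there were 6, 7 and 2 that fell. When any 1 tumor was left out, the medians lay between −0.32 and −0.43 for the core, −0.36 and −0.46 for the 19S regulator and −0.59 and −1.35 for the interferon-induced subunits. Muscle transcripts were abundant in 2 of the 4 MEKi+CD40 tumors and 1 of the 4 CD40 tumors, and without these 3 the medians were −0.39 and −0.34, with no gene passing. Lower medians were not particular to the comparison with CD40. In MEKi+CD40 against Control tumors they were −0.32 for the core and −0.395 for the 19S regulator. Against MEKi tumors they were −0.09 and −0.27. No gene of these 2 lists passed in either comparison, where 0.00888% and 1.15% of all probe sets did. Against Control, 8 of the 12 core genes and 16 of the 17 19S genes had an unadjusted limma p below 0.05, against 21.2% of all probe sets. In the comparison with MEKi 3 and 14 did, against 20.3%. Lower in every MEKi+CD40 tumor than in any Control tumor were 8 core and 12 19S genes, against 8.55% of all probe sets. For MEKi tumors these were 1 and 7, against 7.83%.

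Most of the genes that handle the peptides or regulate this program were higher in CD40 than in MEKi tumors. Of 9 measured, 6 rose, against 0.77% of all probe sets that passed and were higher. Among the 6 were Tap1 (3.68 ± 0.58, adjusted p = 0.0275), the transporter that carries peptides into the endoplasmic reticulum, and Erap1 (2.63 ± 0.28, adjusted p = 0.00845), which trims them there. Others were Tapbp (2.41 ± 0.26, adjusted p = 0.00882), which loads peptides on class I molecules, and the transcription factor Irf1 (3.14 ± 0.48, adjusted p = 0.0249). Without CD40 tumor 2, MEKi tumor 2 or MEKi tumor 3 only 2 of the 9 rose, and without CD40 tumor 1, 3 or 4 or MEKi tumor 4 there were 4. Tapbp was the only one that rose in MEKi+CD40 against MEKi tumors (2.15 ± 0.39, adjusted p = 0.0496), where 0.526% of all probe sets passed and were higher. In that comparison no gene of the list rose without any 1 of 6 of the 8 tumors. Nlrc5, the transactivator of class I genes, read 8.09 to 10.68 in MEKi+CD40, 10.10 to 11.13 in CD40, 4.65 to 8.53 in MEKi and 8.99 to 10.39 in Control tumors. It did not pass in CD40 against MEKi (4.06 ± 0.84, adjusted p = 0.0722). Because 2 of the 4 MEKi tumors lay below background for Nlrc5, the size of that difference is uncertain. Nfe2l1, a transcription factor of proteasome subunit genes, differed by −0.02 ± 0.10 in CD40 against MEKi tumors. It was higher in every MEKi+CD40 tumor than in any CD40 tumor, against 7.52% of all probe sets. The difference was 0.46 ± 0.14 (adjusted p = 0.0995), the opposite sign to the interferon-induced subunits there. Ifng, which encodes interferon gamma, was also among the 6 that rose in CD40 against MEKi tumors (adjusted p = 0.0471), at 5.70 to 7.84 in CD40 tumors. It was below background in 1 MEKi+CD40, no CD40, 4 MEKi and 3 Control tumors, so the size of its difference is not given.

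**Figure D4:**
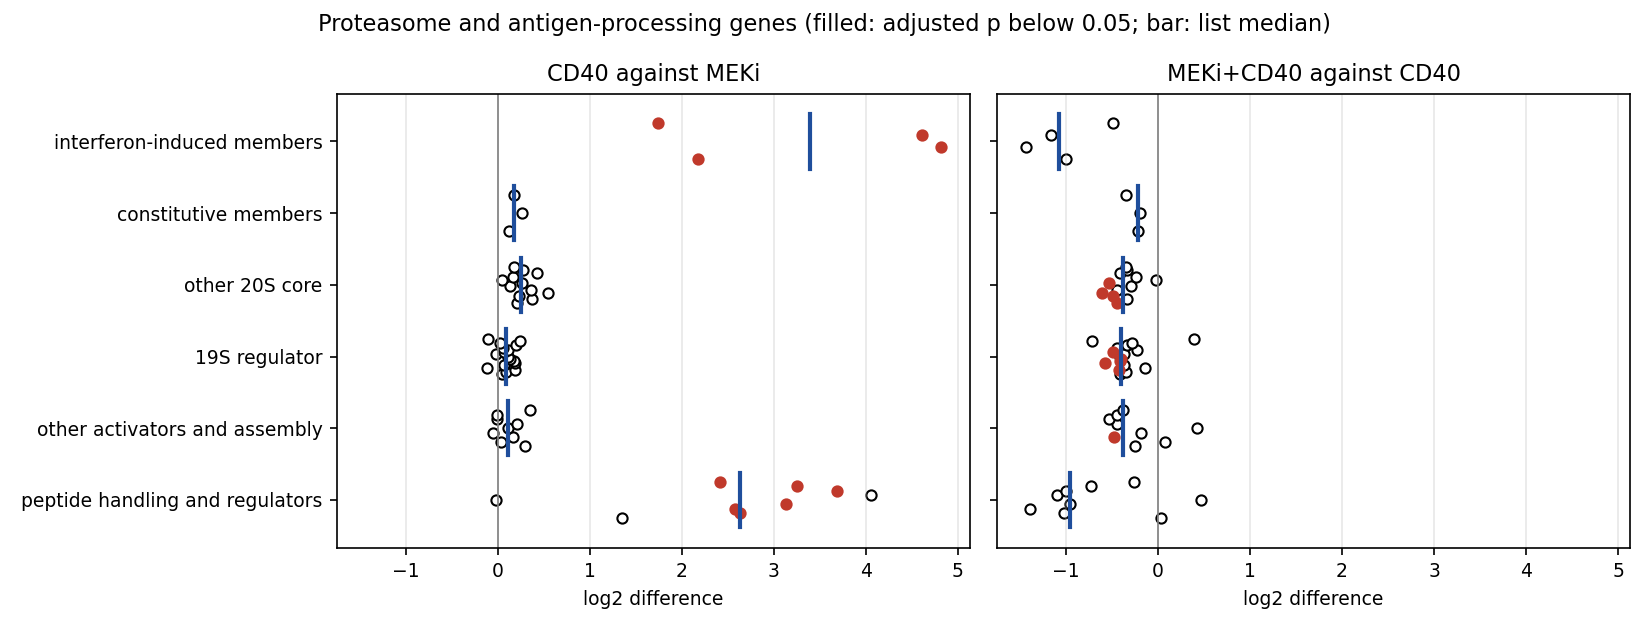
Log2 difference (horizontal axis) of each measured gene in 6 lists for CD40 against MEKi (left) and MEKi+CD40 against CD40 (right), n = 4 tumors per group; filled points have an adjusted p below 0.05 and vertical bars mark list medians. On the left the interferon-induced subunits, at 1.74 to 4.82, and most of the peptide-handling genes lie to the right of the other proteasome genes, with Nfe2l1 at −0.02, and on the right the filled points are proteasome genes at differences of −0.41 to −0.61.

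Outside the members, the 6 genes whose profile over the 16 tumors was nearest to that of Psmb8 were Ifi47, Iigp1, Gbp3, Tap1, Gm4951 and Nlrc5, at root mean square distances of 0.476 to 0.557 log2 units. Ifi47 and Iigp1 encode interferon-inducible GTPases and Gbp3 a guanylate-binding protein. Psmb10 and Psme1 were closer to each other (0.351) than either was to Psmb8 (1.22 and 1.37). The distance is not scaled, so it also depends on how widely each gene varied. Both were nearer to the constitutive subunits than to Psmb8, at 0.87 to 0.95 for Psmb10 and 0.65 to 0.72 for Psme1. These distances alone therefore do not show which subunits share a pattern.

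Leukocyte transcripts, like the interferon-induced subunits, were higher in CD40 than in MEKi tumors, with a median difference of 2.92 over 12 genes. In MEKi+CD40 against Control tumors the signs of the medians differed. They were 0.50 for leukocyte genes, 0.54 for macrophage genes and −0.22 for the interferon-induced subunits. No gene of these lists passed, where 0.00888% of all probe sets did. The subunit differences lay within the spread of the tumors. Without MEKi+CD40 tumor 4 those of Psmb8, Psmb9 and Psmb10 turned to 0.40, 0.37 and 0.17, so their negative sign rested on that tumor. The mean of 12 leukocyte genes was 7.54 to 10.7 in MEKi+CD40, 9.27 to 11.4 in CD40, 6.21 to 8.54 in MEKi and 7.79 to 9.67 in Control tumors, and 4 of the 12 rose in CD40 against MEKi. The mean of 10 macrophage genes was 6.91 to 10.7 in MEKi+CD40, 8.93 to 11.2 in CD40, 5.62 to 8.51 in MEKi and 7.10 to 9.38 in Control tumors, and 2 of the 10 rose. For 10 measured T and NK cell genes it was 5.37 to 6.45 in MEKi+CD40, 5.94 to 7.26 in CD40, 5.09 to 5.37 in MEKi and 5.37 to 6.47 in Control tumors, and 2 rose. Over all probe sets, 0.77% passed and were higher in CD40 against MEKi. Without CD40 tumor 2, MEKi tumor 1 or MEKi tumor 2 no gene of the 3 lists passed. The part of leukocyte content in the subunit differences was not tested.

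Single tumors show where the levels of leukocyte genes and of Psmb8 ran together and where they did not. MEKi+CD40 tumor 4, low in all 4 interferon-induced subunits, had the lowest leukocyte mean (7.54) and the lowest T and NK cell mean (5.37) of its group. MEKi tumor 2 had the lowest leukocyte mean of all tumors (6.21) and the lowest Psmb8 (5.81). MEKi tumor 3, in contrast, had a leukocyte mean of 8.54, above those of Control tumors 1 (7.79) and 2 (8.27), while its Psmb8 was 6.87, against 10.32 and 10.68 in those 2 tumors. Its T and NK cell mean, 5.09, was the lowest of the 16, while Ifng was below background in it as in Control tumors 1 and 2. It also had the highest fibroblast mean of the MEKi tumors, 11.05 against 7.76 to 8.70 in the other 3. Over 8 fibroblast genes this mean was 7.53 to 12.03 in MEKi+CD40, 7.47 to 10.8 in CD40, 7.76 to 11.05 in MEKi and 7.87 to 8.51 in Control tumors, and the 3 tumors with muscle transcripts, at 10.43 to 12.03, were the other high ones. The median difference of these genes was 1.21 in MEKi+CD40 against Control tumors, and none of the 8 passed. The part of fibroblast transcripts in the subunit levels was not tested.

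**Figure D5:**
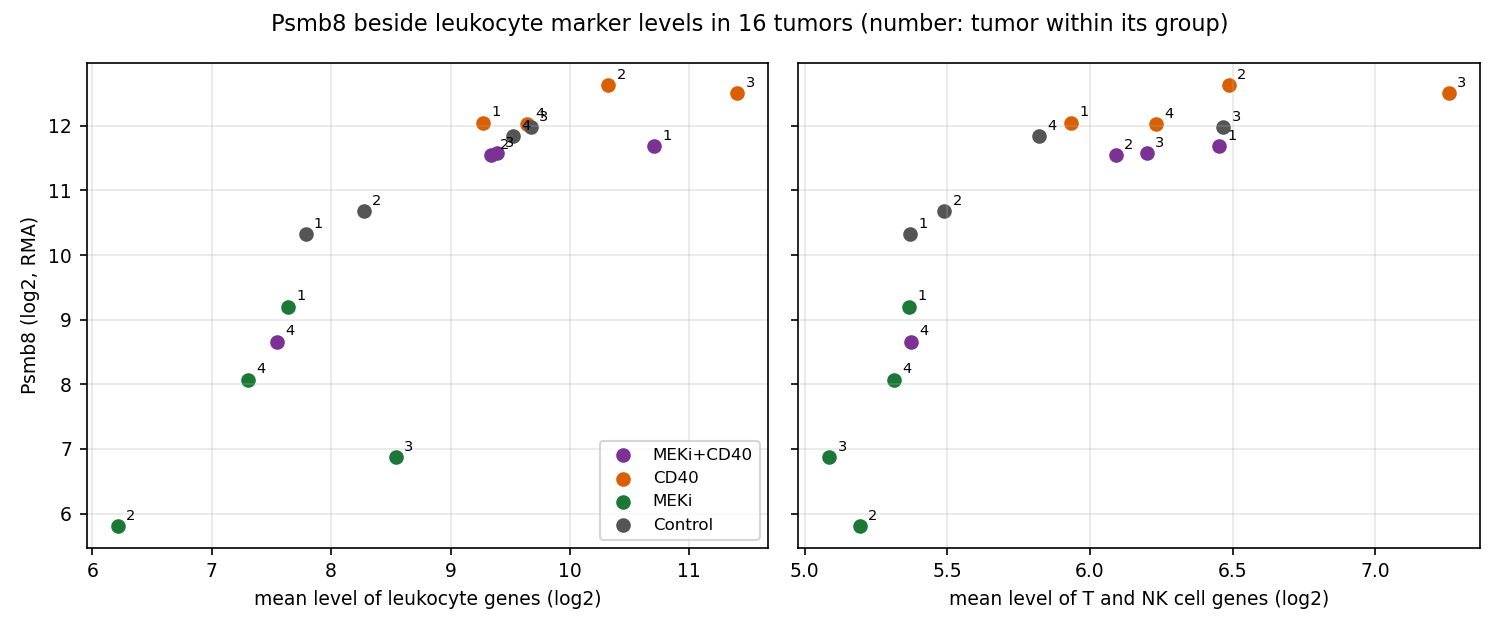
Psmb8 (log2, vertical axis) against the mean level of 12 leukocyte genes (left) and of 10 T and NK cell genes (right, both log2) in the 16 tumors, coloured by group, with the number of each tumor in its group. MEKi tumor 3 lies apart on the left, with a leukocyte mean of 8.54 and a Psmb8 level of 6.87.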

How the data were processed

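Per the labels and the study's methods, 200 ng of total RNA per tumor was the input for labelled cRNA, which was hybridised to Affymetrix mouse arrays. The authors deposited log2 values made in Chipster with the robust multichip average (RMA, version not given in the sources used here). RMA brings the arrays to a common distribution, so differences are relative to the other probe sets. Affymetrix controls (64) were left out and 45037 probe sets tested, of which 34945 carry 1 symbol, 932 several and 9160 none. Groups came from the labels. In limma 3.58.1 (R 4.3.3), lmFit and eBayes were applied to the 8 arrays of a comparison, or to all 16 for the interaction, after a check on simulated data. A gene was called at a Benjamini-Hochberg adjusted p below 0.05. Pair differences were tested by exact permutation (scipy 1.17.1). Background is the 95th percentile of the means of 44 olfactory receptor probe sets, and 39.7% of probe sets lay below it. The number of arrays limits the precision. Lists are described by counts; up to 4 genes of a list were named by smallest p, plus those fixed by name. The members and lists were chosen with earlier results of these data known. Alternatives were a single fit of the 16 arrays, a replicate block, a low-signal filter, 1 probe set or the mean of all for a gene, cyclic loess, centring on the median, eBayes with a trended and robust prior, array weights, and each tumor left out in turn. Leaving out the 3 tumors with muscle transcripts, and counting list genes with tumors left out, were chosen after seeing the data. Psme2 is not analysed here, and no protein sequences were used.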

Additional observations from a re-analysis of the deposited data

Results flagged for a closer look

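Of 28 sets of 4 tumors (7 subunits in 4 groups), 3 held a tumor far from the other 3 by Dixon's test at the 95% level, which sets the gap to the nearest tumor against the range of the group. Chance marks about 1 in 20 such sets. All 3 were MEKi+CD40 tumor 4, with 8.66 for Psmb8 (next tumor 11.54, gap 0.95 of the range), 9.17 for Psmb9 (next 11.32, gap 0.91) and 11.03 for Psme1 (next 12.01, gap 0.96). The subunits share the tumor, so these are not independent. The leukocyte mean of that tumor, 7.54, was also the lowest of its group.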

How the results depend on the processing

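In CD40 against MEKi the 4 calls became 2 with a replicate block (Psmb9, adjusted p = 0.0586, and Psmb10, adjusted p = 0.0600, missed), 1 with trended robust eBayes and 1 to 4 when single tumors were left out. In MEKi+CD40 against MEKi the 0 calls became 3 with the 16 arrays in a single fit, 1 each with the low-signal filter, 1 probe set per gene or array weights, and 0 to 1 when single tumors were left out. In MEKi+CD40 against CD40 the single fit gave 1 call (Psmb7). The cause was not tested. The other 140 of 150 counts were equal or close to the main count, where a fall from 4 calls to 3 was taken as close. In CD40 against MEKi such a fall occurred without CD40 tumor 1, CD40 tumor 4 or MEKi tumor 3. The 150 include the counts of pair differences. Of 924 subunit differences 11 changed sign, none of them called. In MEKi+CD40 against Control, Psme1 was −0.024 with array weights and −0.11 without the muscle tumors. When single tumors were left out it lay between −0.026 and 0.38, Psmb8 between −0.63 and 0.40, Psmb9 between −0.48 and 0.37 and Psmb10 between −0.55 and 0.17. So left out, Psmb6 lay between −0.0050 and 0.13 in MEKi+CD40 against MEKi and likewise in the interaction, where Psmb5 lay between −0.12 and 0.00083. In MEKi+CD40 against Control, Psmb8 minus Psmb5 was 0.26 with the mean of all probe sets and −0.36 to 0.64 with tumors left out, Psmb9 minus Psmb6 −0.28 to 0.54 and Psmb10 minus Psmb7 −0.37 to 0.46. No pair difference passed under any alternative, and 3 against 4 tumors cannot give an exact permutation p below 0.0571. Signal near background limits the dimmer Psmb8 probe set.

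The replicate numbers do not pair the tumors: 24 same-numbered pairs had correlations between −0.52 and 0.47, 7 of them over 0.1, and 4 of 16 tumors correlated best with their own number. The block changed no call of a subunit other than those of Psmb9 and Psmb10.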
